A study of Mus musculus with 2 samples.

Results

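The IFI200 family is a cluster of related interferon-inducible genes on mouse chromosome 1, and its levels were read in the nucleoplasm of macrophages. The family was taken as 8 listed gene names, Ifi203, Ifi204, Ifi205, Ifi207, Ifi209, Ifi211, Mnda and Mndal. They were chosen by name and not by measured values, though with earlier results of these data known. Of these, 7 had an entry of that name among the 55536 annotated genes. Mnda had none, and RefSeq lists that name as a synonym of Ifi211, so Mnda was counted only through Ifi211. RefSeq also lists Mndal among the synonyms of Ifi203, besides giving it an entry of its own, and each was taken here as annotated. All 7 measured members were expressed, from 98.7 to 445 TPM (transcript abundance scaled for length and library total), and 4 of them, against 60.2% of detected protein-coding genes, have an annotated transcript that keeps an intron, which held 28.5 to 52.1% of their level.

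The libraries held ribosomal-RNA-depleted total RNA of the nucleoplasmic fraction, which the labels elsewhere call nuclear, from bone-marrow-derived macrophages of C57BL/6J mice. Such macrophages are primary phagocytes grown in culture from marrow. Lipid A was given at 100 ng/ml for 12 h and washed out, and after 12 h without it the cells received 100 ng/ml once more for 25 min. Lipid A is the part of bacterial lipopolysaccharide that the receptor TLR4 recognises. Both libraries belong to this 1 group, with no untreated control, so no value here is a response to lipid A. They are labelled biological replicates 1 and 2 but carry 1 donor entry, so their spread may be technical. No sex or age was recorded. The RNA input was 500 ng for replicate 1 and 1 µg for replicate 2, and input and replicate cannot be told apart. With 2 libraries of 1 group no test between conditions exists, and values are given per library with the mean and standard deviation (SD, n = 2).

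Replicate 1 totalled 20196408 and replicate 2 totalled 19588980 expected counts, which are read counts shared out by a model among the transcripts they fit. The 10 macrophage markers were all at 1 TPM or more in both libraries, led by Lyz2 and Adgre1, with median levels of 140 and 148 TPM. Of the 35 markers of other cells, 4 reached 1 TPM in both libraries. These were Mmp8 among 8 neutrophil, Alas2 among 6 erythroid and mast cell, and Pecam1 and Kdr among 6 stromal and endothelial markers. None of the 9 lymphocyte or 6 dendritic cell markers did. In the neutrophil list Ngp came next, at 0.45 and 0.18 TPM, and in the erythroid and mast cell list Hbb-bs, at 0.25 and 0.1 TPM. The dendritic cell list was led by Zbtb46, at 0.82 and 0.77 TPM, and Clec9a, at 0.49 and 0.4 TPM. In the lymphocyte list Cd8a and Ms4a1 were each at 0.11 and 0.08 TPM. The summed TPM in replicates 1 and 2 was 2.39 and 1.43 for the neutrophil, 0.35 and 0.38 for the lymphocyte, and 1.91 and 1.68 for the dendritic cell list. It was 1.81 and 3.09 for the erythroid and mast cell list and 12.3 and 20.1 for the stromal and endothelial list, in which Kdr held 9.67 and 18.28 TPM. Of the defining markers, Ly6g, Mpo, Elane and Cd3e had no count in either library. Whether other cells contributed to the member levels was not tested.

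IFI200 proteins, also called PYHIN or HIN-200 proteins, mostly join a pyrin domain at one end, which binds other pyrin domains, to a HIN domain at the other, which binds DNA. In macrophages the family is known for recognising foreign or misplaced DNA and for acting on transcription in the nucleus. Aim2, the best studied relative, assembles an inflammasome on cytosolic DNA, whereas Ifi204 is the mouse gene most often set beside human IFI16, a nuclear and cytosolic DNA sensor that signals through STING. Type I interferon raises many of its target genes through the interferon-stimulated response element (ISRE), a short promoter sequence.

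The sequence before the start sites was examined for such elements, because the members are known as interferon targets and because 2 of them turned out to share a start. RefSeq promoter windows, running from 250 bases before to 50 bases after a start site on GRCm38.p6, matched 6 of the 7 members with 8 windows. Ifi204 was not matched. The ISRE core, searched as GAAANNGAAA on both strands, was found in 6 of the 8 windows and in 5 of the 6 genes, against 3.44% of all 32851 windows. Shown here are the 5 stretches that hold it on the gene's strand, from at most 80 bases before the core nearest to the start to the base before the start site, with the core in capitals.
Ifi203 (chr1:173942493-173942607, minus strand): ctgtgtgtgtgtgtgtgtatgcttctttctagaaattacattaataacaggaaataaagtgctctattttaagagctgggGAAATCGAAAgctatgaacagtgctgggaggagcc
Mndal (chr1:173880188-173880303, minus strand): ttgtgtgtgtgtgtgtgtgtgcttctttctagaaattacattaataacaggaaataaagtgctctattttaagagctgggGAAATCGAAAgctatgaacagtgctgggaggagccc
Ifi211 (chr1:173913047-173913163, minus strand): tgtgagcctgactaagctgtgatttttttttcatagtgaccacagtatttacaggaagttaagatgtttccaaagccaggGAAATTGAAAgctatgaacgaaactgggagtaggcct
Ifi207 (chr1:173741810-173741930, minus strand): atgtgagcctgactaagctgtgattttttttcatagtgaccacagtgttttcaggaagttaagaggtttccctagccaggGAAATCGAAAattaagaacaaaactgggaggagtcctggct
Ifi205 (chr1:174031756-174031969, minus strand): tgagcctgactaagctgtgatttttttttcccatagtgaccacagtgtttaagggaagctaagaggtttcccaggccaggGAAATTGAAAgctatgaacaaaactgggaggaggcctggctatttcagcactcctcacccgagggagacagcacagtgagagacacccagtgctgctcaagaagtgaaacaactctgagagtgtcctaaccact
The core began 35 bases before the RefSeq start site in Ifi203, 36 in Mndal, 37 in Ifi211, 41 in Ifi207 and 134 in Ifi205. No measured transcript starts inside the Ifi207 or Ifi209 window. Ifi207-201 starts at chr1:173741747, downstream of the RefSeq site at chr1:173741809, so its core lies further from the measured start than stated. Ifi203, Mndal and Ifi207 held the same letters in it, and Ifi211 and Ifi205 differed from these at a free position. The Ifi203 and Mndal stretches shared an unbroken run of 96 bases that includes the core. Between any other pair of these stretches the longest shared run was 12 to 30 bases. Ifi205 held a further match on the other strand, after the start site. Another Mndal window held a match on the other strand, from 54 bases before its own start site. These were 7 distinct sites in the members, and Ifi209 held none. Among the relatives outside the listed family, Ifi206, Ifi208, Ifi213 and Ifi214 held 1 core each, and Aim2 and Ifi202b none.

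Of the other motifs searched on both strands, the AP-1 site TGANTCA, whose letters read alike on both strands, was present in 5 member windows and 3 genes, Ifi203, Mndal and Ifi209, against 7.81% of all windows. The 2 Ifi203 windows overlap and hold the same site, so these were 4 distinct sites. The GAS motif TTCNNNGAA was in none of the member windows and in 8.30% of all windows. The PU.1 site GAGGAAGT and the κB site were likewise in none, against 3.20% and 4.51% of all windows. The GAS letters can overlap those of the ISRE core, since both can use GAA, and each motif was searched on its own. A match describes the letters only and is not a measured binding site.

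The start of the coding sequence gives a short stretch over which the members can be compared and in which reads may fit several of them. The first 60 coding bases of each member's most abundant coding transcript, from GENCODE M21 on GRCm38, lie in 1 exon and are shown with capitals where a base differs from Ifi205. Mndal was slid by 3 bases, 1 codon, which left the fewest differences.
Ifi205 (chr1:174028403-174028462, minus strand): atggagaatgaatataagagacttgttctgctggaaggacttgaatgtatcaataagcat
Ifi204 (chr1:173761804-173761863, minus strand): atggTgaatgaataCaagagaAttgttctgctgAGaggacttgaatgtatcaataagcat
Ifi211 (chr1:173907802-173907861, minus strand): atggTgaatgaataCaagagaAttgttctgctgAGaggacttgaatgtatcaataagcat
Ifi207 (chr1:173736392-173736451, minus strand): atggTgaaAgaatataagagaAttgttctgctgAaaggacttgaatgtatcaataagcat
Ifi209 (chr1:173637306-173637365, plus strand): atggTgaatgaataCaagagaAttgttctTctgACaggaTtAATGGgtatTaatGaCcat
Ifi203 (chr1:173937947-173938006, minus strand): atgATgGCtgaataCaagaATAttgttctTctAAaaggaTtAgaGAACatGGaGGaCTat
Mndal (chr1:173875778-173875837, minus strand): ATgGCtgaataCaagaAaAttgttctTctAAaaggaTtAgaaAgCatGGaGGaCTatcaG
Ifi204 and Ifi211 were identical over these 60 bases. They differed from Ifi205 at 5 bases, and Ifi207 at 4. Ifi209 differed from it at 15, Mndal at 21 and Ifi203 at 23. Mndal and Ifi203 differed from each other at 3 bases. The starts thus fell into a close set of Ifi204, Ifi205, Ifi207 and Ifi211, a close pair of Mndal and Ifi203, and Ifi209 apart from both. This grouping describes the 60 bases and not the whole transcripts.

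All 7 measured members were at 1 TPM or more in both libraries, a level reached by 44.9% of the 22028 protein-coding genes. Together they held 1605.55 TPM in replicate 1 and 1523.87 TPM in replicate 2, a mean of 1565 ± 57.8 TPM (SD, n = 2). By reads they took 0.317% of the expected counts of replicate 1 (95% Wilson interval 0.315 to 0.320%) and 0.338% of those of replicate 2 (0.336 to 0.341%). These intervals cover counting error only. In bulk RNA the number of expressing cells and the RNA per cell cannot be told apart.

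Mndal, an interferon-inducible relative of human MNDA, was at 474.6 and 416.22 TPM in replicates 1 and 2. This mean of 445 ± 41.3 TPM (SD, n = 2) was the highest of the family and ranked 56 among protein-coding genes. By expected counts, which are not scaled for length, Mndal had rank 3 among the members and Ifi203 rank 1. Ifi204, which encodes a DNA sensor, was at 345.28 and 372.6 TPM, a mean of 359 ± 19.3 TPM and rank 79. Its range lay below that of Mndal in these libraries. Ifi203 was at 262.79 and 228.64 TPM, a mean of 246 ± 24.1 TPM and rank 133, again with no overlap with the gene above it.

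Ifi211 was at 157.22 and 157.81 TPM, a mean of 158 ± 0.417 TPM and rank 258. Ifi207 was at 163.9 and 141.21 TPM, a mean of 153 ± 16.0 TPM and rank 265. The range of Ifi207 enclosed both values of Ifi211, so these neighbours did not differ beyond their spread. Ifi205, reported to control expression of the inflammasome adaptor Pycard in mouse macrophages, was at 104.04 and 107.7 TPM, a mean of 106 ± 2.59 TPM. Ifi209 was lowest at 97.72 and 99.69 TPM, a mean of 98.7 ± 1.39 TPM. The ranges of Ifi205 and Ifi209 did not overlap but lay only 7.17 TPM apart in their means, and their ranks among protein-coding genes were 431 and 463. The order from Mndal to Ifi209 held under 4 of the 6 other settings tried, and under the remaining 2 Ifi207 and Ifi211 changed places.

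**Figure D1:**
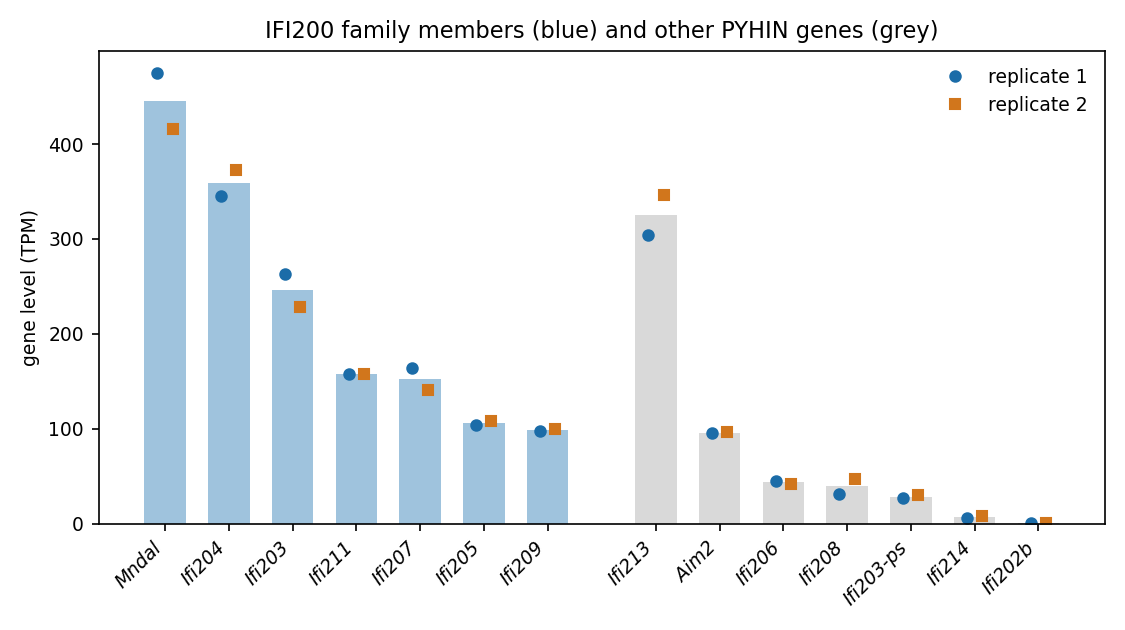
Gene level in TPM (vertical axis, from 0) of the 7 measured members in blue and 7 other PYHIN genes in grey; bars are means of the 2 libraries, circles replicate 1 and squares replicate 2. Members run from 98.7 to 445 TPM, and Ifi213, outside the listed family, lies between Ifi204 and Ifi203.

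The gene levels joined different kinds of transcript. Over the members, transcripts annotated as protein coding held 66.2% of the TPM in replicate 1 and 64.9% in replicate 2, a mean of 65.5 ± 0.870% (SD, n = 2). Retained-intron transcripts, which keep an intron and carry no annotated coding sequence, held 29.2% and 29.4%. Over 11375 detected protein-coding genes the median of the per-gene shares of coding transcripts was 78.03%. That is a different measure from the share of summed TPM given for the members. Taken gene by gene, the members ran from 43.7% in Mndal to 100% in Ifi207 and Ifi211. Reads of an intron count in these tables only where a transcript that keeps it is annotated, so the shares depend on the annotation. In total RNA of the nucleoplasm, RNA not yet spliced and a finished transcript that keeps an intron cannot be told apart by these shares. The same limit holds for the levels of single transcripts below.

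Ifi205 had the highest retained-intron share of the members. Its transcript Ifi205-202 held 57.79 and 52.4 TPM in replicates 1 and 2, which was 55.5% and 48.6% of the gene. The only coding transcript, Ifi205-201, held 46.26 and 55.31 TPM. By this TPM the coding transcript was thus the lower one in replicate 1 and the higher one in replicate 2. By expected counts and by the TPM of the second deposited table (kallisto layout), Ifi205-202 was the higher one in both libraries, with 73.3% and 67.2% of the gene's counts. Of the 3274 bases of Ifi205-202, 2564 lie outside the exons of the coding transcript. The mean share of 52.1% exceeded that of 85.8% of the 6848 detected protein-coding genes with such a transcript, whose median was 25.7%.

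Mndal had 2 retained-intron transcripts, Mndal-205 at 127.89 and 116.9 TPM and Mndal-203 at 77.44 and 58.49 TPM. Together they held 43.3% and 42.1% of the gene in replicates 1 and 2. Its most abundant transcript was the coding Mndal-201, at 175.15 and 136.64 TPM. Entries annotated as processed transcripts held a further 11.6% and 14.6% of Mndal. Among them Mndal-209, of 367 bases, held 47.27 and 43.82 TPM from 139 and 174 expected counts. Ifi204 had a single pair of transcripts, the coding Ifi204-201 at 212.72 and 219.2 TPM and the intron-keeping Ifi204-202 at 132.56 and 153.4 TPM. The latter made up 38.4% and 41.2% of the gene. In Ifi203, with 9 transcripts, the coding Ifi203-202 at 87.32 and 53.62 TPM and the retained-intron Ifi203-207 at 73.11 and 66.75 TPM had the highest means. Ifi203-205, also coding, was at 52.93 and 60.51 TPM, so that Ifi203-202 came first in replicate 1 and below both others in replicate 2. The retained-intron share of Ifi203 was 27.8% and 29.2%, higher than in 54.8% of the genes with such a transcript, and the corresponding places of Ifi204 and Mndal were 72.6% and 76.7%.

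Ifi207, Ifi209 and Ifi211 have no annotated retained-intron transcript. Ifi207-201 held 163.48 and 141.21 TPM, and the other coding transcript of the gene, Ifi207-202, held 0.41 and 0 TPM. Ifi211 has 1 transcript, which is coding. Ifi209-201 held 93.11 and 96.2 TPM, with 4.61 and 3.49 TPM on Ifi209-202, a transcript annotated as a target of nonsense-mediated decay.

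Counting coding transcripts alone changed the order of the family. Ifi204 then came first, at 212.72 and 219.2 TPM, a mean of 216 ± 4.58 TPM (SD, n = 2). Mndal followed at 212.1 and 178.14 TPM, a mean of 195 ± 24.0 TPM, with its range just below that of Ifi204. Ifi203 at 176.84 and 141.49, Ifi211 at 157.22 and 157.81, and Ifi207 at 163.89 and 141.21 TPM had overlapping ranges. Ifi209 came sixth, at 93.11 and 96.2 TPM, and Ifi205 last, at 46.26 and 55.31 TPM. Ifi205 and Ifi209 thus changed places relative to the order by all transcripts.

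**Figure D2:**
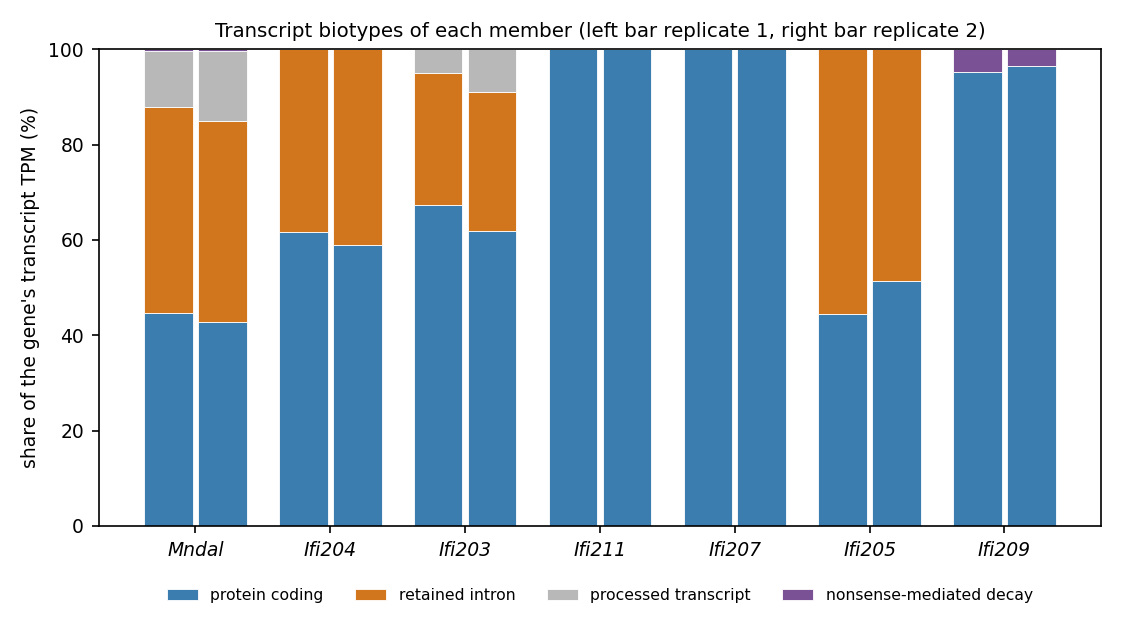
Share of each member's transcript TPM (vertical axis, 0 to 100%) by annotated transcript type; the left bar of each gene is replicate 1 and the right bar replicate 2. Retained-intron transcripts hold from 27.8 to 55.5% of Ifi203, Ifi204, Ifi205 and Mndal, and the other 3 members have none annotated.

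Sequence shared between genes can limit how firmly reads are given to one of them. For each gene the 31-base words of its annotated transcripts were looked up in the transcripts of every other gene, on either strand. Ifi211 shared most, with 1366 of its 1731 words (78.9%) found elsewhere, namely 49.5% in Ifi205, 38.6% in Ifi204 and 25.2% in Mndal. Ifi209 shared 47.2%, nearly all of it with Ifi214, which holds 46.8% of its words. Ifi204 shared 34.6% and Mndal 28.7%. Of the Mndal words, 11.9% were in Ifi211, 10.4% in Ifi205 and 8.77% in Ifi203, unlike the pairing by coding starts. Ifi205 shared 22.1% and Ifi203 21.9%, the latter mainly with the pseudogene Ifi203-ps, which holds 15.9% of its words. Ifi207 shared least, 14.8%. With 75-base words the share was still 63.6% in Ifi211 but 2.80% in Ifi207.

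The deposited posterior SD of the count, a measure of how uncertain the sharing-out of reads was, was also highest in Ifi211. It was 30.0 in replicate 1 and 37.0 in replicate 2, or 0.614% and 0.673% of the gene's count. Ifi205 followed at 20.8 and 25.7 counts, and Ifi204 at 19.5 and 23.2. In the other 4 members it lay between 0.48 and 8.15 counts. Ifi209, next to Ifi211 in shared words, was among these at 2.55 and 3.37 counts. The share of words and this SD thus did not order the members alike. These SDs cover the sharing-out of reads within the model and not differences between cultures.

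A second deposited table, with estimated counts made directly from the reads per the file notes, gave every member more counts than the first table. The ratio ran from 1.495 in Ifi209 to 2.48 in Ifi205 in replicate 1, and from 1.24 to 1.89 in the same genes in replicate 2. The median ratio over all detected genes was 1.74 and 1.33, so Ifi205 lay above it in both libraries and Ifi209 below it.

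**Figure D3:**
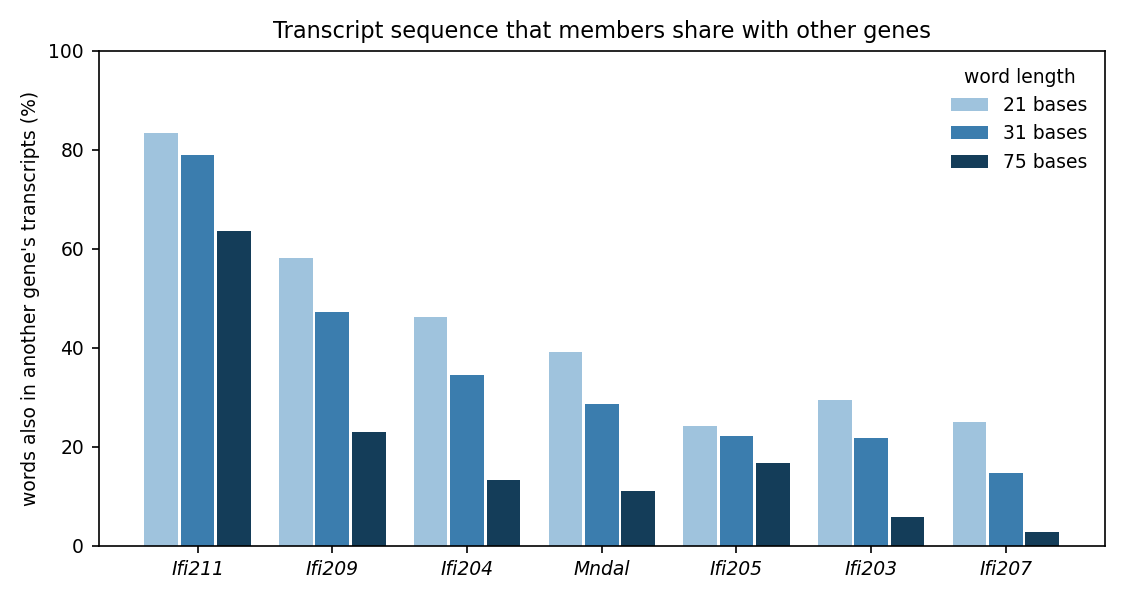
Share of the words of each member's annotated transcripts that also occur in transcripts of another gene (vertical axis, 0 to 100%), for words of 21, 31 and 75 bases. Ifi211 stands at 83.4, 78.9 and 63.6%, and Ifi207 falls from 24.9 to 2.80%.

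On GRCm38 the members span 400894 bases of chromosome 1, from Ifi209 (chr1:173630917-173647928, plus strand) to Ifi205 (chr1:174011998-174031810, minus strand). Between them lie Ifi207 (chr1:173723427-173741747), Ifi204 (chr1:173747293-173766943), Mndal (chr1:173849126-173942491), Ifi211 (chr1:173896345-173913046) and Ifi203 (chr1:173920407-173942672), all on the minus strand. The span holds 16 annotated genes, of which 9 are protein coding, 6 are pseudogenes and 1 is a miRNA. The coding genes in it that are not members are Ifi208, at 31.64 and 46.51 TPM, and Ifi202b, which had 9 and 15 counts. Of the pseudogenes, Ifi203-ps was at 27.23 and 29.69 TPM, and the other 5 were at 3.01 TPM or less. The miRNA gene Gm44339 had no count. The next gene beyond Ifi205, the olfactory receptor Olfr433, was at 2.04 and 2.13 TPM, and Cadm3, which overlaps the far end of Aim2 on the opposite strand at the other side of the cluster, had 0 and 2 counts.

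Mndal spans Ifi211 and reaches into Ifi203 on the same strand. Its most abundant transcript, Mndal-201, starts at chr1:173942491, inside a first exon of Ifi203, and shares 37 exonic bases with that gene. The other Mndal transcripts start at chr1:173880881 or further downstream. The Ifi203 stretch printed above therefore precedes Mndal-201 as well as 8 Ifi203 transcripts, whereas the Mndal stretch directly precedes the start of Mndal-209. Mndal-203 starts within that stretch and Mndal-204 just before it. Reads within the shared 37 bases cannot be assigned to one gene by position. Mndal and Ifi211 share no exonic base.

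**Figure D4:**
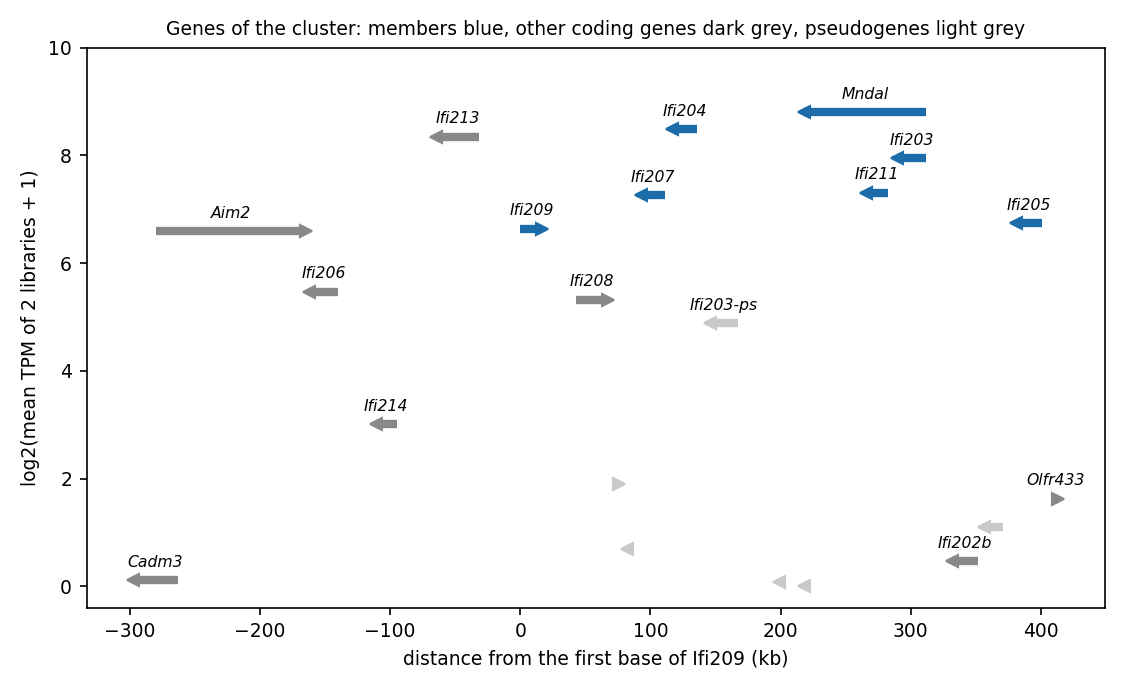
Genes of the cluster by distance from the first base of Ifi209 (horizontal axis, kb) and mean level of the 2 libraries (vertical axis, log2(TPM + 1)); arrows give the strand, members are blue, other coding genes dark grey and pseudogenes light grey. Members lie above most of their neighbours, and Mndal overlies Ifi211 and Ifi203 on the same strand.

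Of 10 other names of the PYHIN group, 7 had an entry. Pydc3, Pydc4 and Pydc5 had none of that name, and RefSeq lists Pydc4 as a synonym of Ifi213 and Pydc3 of Ifi208. Ifi213 was at 303.73 and 345.97 TPM, a mean of 325 ± 29.9 TPM (SD, n = 2) and rank 94 among protein-coding genes. Its range overlapped that of Ifi204 and lay above that of Ifi203. Aim2, the inflammasome sensor, was at 95.24 and 96.24 TPM over all its transcripts, just below Ifi209 in both libraries. Coding transcripts held 61.2% and 44.7% of that level in Aim2, against 95.3% and 96.5% in Ifi209. The rest of Aim2, 38.8% and 55.3%, lay on processed transcripts that held 6.14% and 13.7% of its expected counts. Ifi206 was at 44.84 and 41.76 TPM and Ifi214 at 5.79 and 8.35 TPM. Ifi202b, which encodes HIN domains without a pyrin domain and is known as an inhibitor of Aim2, was at 0.31 and 0.46 TPM.

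Between the libraries the members moved by at most 0.40 in log2. Ratios were taken as log2 of replicate 2 over replicate 1 from CPM, counts scaled to the library total with TMM factors, which correct for library composition. Mndal was at 507 and 536 CPM, a log2 ratio of 0.08. Ifi203 was at 709 and 717 CPM, a ratio of 0.02, and Ifi207 at 499 and 527 CPM, a ratio of 0.08. These 3 genes were thus nearly level between the libraries. Ifi204 was at 602 and 793 CPM, the largest log2 ratio of the family at 0.40. Ifi209 was at 291 and 366 CPM with a ratio of 0.33, Ifi211 at 234 and 291 CPM with 0.31, and Ifi205 at 229 and 277 CPM with 0.28.

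No member passed 1.5-fold between the libraries on the CPM scale, beside 24.6% of the 14596 detected genes that did, in either direction. With only 7 members, having none past it does not set the family apart from that share. The median absolute log2 ratio of detected genes was 0.32, and Ifi204 at 0.40 and Ifi209 at 0.33 lay above it. The other members lay below it, with Ifi211 at 0.31 and Ifi205 at 0.28 nearest. All 7 members were higher in replicate 2 on the CPM scale, but on the TPM scale Mndal, Ifi203 and Ifi207 were lower, at log2 ratios of -0.19, -0.20 and -0.21. The median log2 ratio of the members was 0.28 by CPM and 0.01 by TPM, and that of all detected genes was 0.00 by CPM and -0.28 by TPM. The members therefore lay above the median of all genes by a like amount on both scales. In the deposited kallisto-layout TPM all 7 members were past 1.5-fold lower in replicate 2, with a median log2 ratio of -1.94, and all detected genes above 0 had a median of -2.28. The median of detected genes is itself past 1.5-fold lower, so this count does not set the members apart. After rescaling to protein-coding genes the member median was 0.31, the median of detected genes was -0.03 and no member passed 1.5-fold.

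Lists of genes that act around the family were described in the same way, beside the 13.7% of detected genes that were at least 1.5-fold higher in replicate 2. Of 18 genes of cytosolic DNA sensing, all were at 1 TPM or more in both libraries, and 5 were past 1.5-fold higher in replicate 2. These were Irf7, an interferon regulatory factor, Trex1, a DNA exonuclease, Ifi35, Irf3 and the kinase gene Ikbke. The list was led by Samhd1, a dNTP hydrolase, at 409.7 and 471.18 TPM, and by Irf7 at 283.6 and 594.81 TPM. Values are also given for 3 further genes of the list. Sting1, annotated as Tmem173, was at 9.43 and 9.69 TPM, and Cgas, annotated as Mb21d1, at 6.7 and 7.56 TPM. Pycard was at 10.21 and 10.47 TPM. The kinase gene Ikbke was at 278.81 and 396.02 TPM.

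Of 11 genes of type I interferon signalling, 7 were past 1.5-fold higher in replicate 2, and the median log2 ratio of the list was 0.79. Stat2, a transcription factor of the pathway, was at 227.11 and 351.59 TPM, and its partner Irf9 at 35.34 and 30.35 TPM. Their log2 ratios by CPM were 0.66 and 0.10. Ifnb1, which encodes interferon beta, was at 1.14 and 5.54 TPM, with 12 and 68 counts. Of 20 other interferon-stimulated genes, 10 were past 1.5-fold higher in replicate 2, and the median log2 ratio was 0.68. Rsad2, which encodes viperin, was at 810.39 and 1225.55 TPM and Ifit2 at 963.14 and 905.54 TPM. By CPM the log2 ratios of Rsad2 and Ifit2 were 0.89 and 0.20. The member median of 0.28 was lower than the medians of both these lists. It lay nearer to those of cytosolic DNA sensing genes (0.29), macrophage markers (0.32) and the other PYHIN genes (0.36). Each side held 1 library, and no difference between lists was tested. The lists of cytosolic DNA sensing, type I interferon signalling and other interferon-stimulated genes had no gene past 1.5-fold lower in replicate 2. Of the 14596 detected genes, 1589 were.

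Among the other PYHIN genes, Ifi208 and Ifi214 were past 1.5-fold higher in replicate 2, at log2 ratios of 0.85 and 0.91. Aim2 was at -0.07. In the macrophage marker list 3 genes were past 1.5-fold higher, Fcgr1, Cd68 and Spi1, and Cd14 was past it in the other direction. The starting amount of RNA differed between the libraries, and its part in these ratios was not tested.

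**Figure D5:**
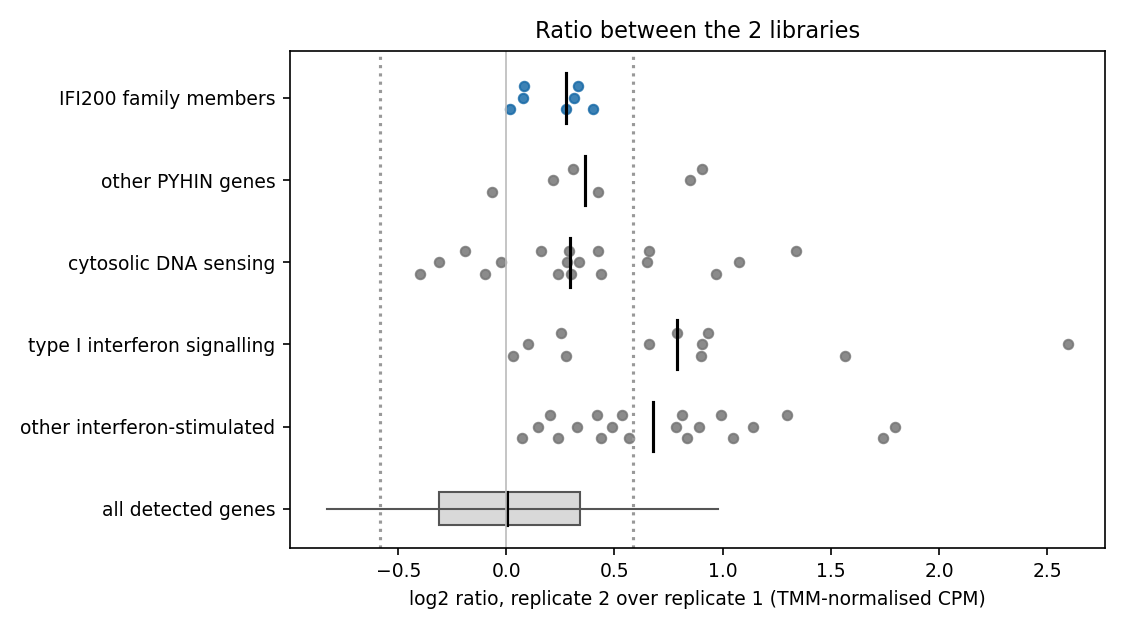
Log2 ratio of replicate 2 over replicate 1 (horizontal axis, TMM-normalised CPM) for each gene of 5 lists (points; black bars are list medians) and for all 14596 detected genes (box from the 25th to the 75th percentile with the median; line from the 5th to the 95th); dotted lines mark 1.5-fold. The 7 members lie between 0.02 and 0.40, inside the dotted lines.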

How the data were processed

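Per the deposited file notes, reads were aligned to the transcriptome of mm10 with GENCODE M21. The authors deposited expected counts, TPM and isoform percent per gene and transcript (RSEM layout) and estimated counts and TPM per transcript (kallisto layout). Which programs and which strand setting made them is not given in the sources used here, so antisense reads cannot be told apart. The deposited posterior SD and other columns were read as given. Members and gene lists were chosen with earlier results of these data known. Named were all members, other PYHIN genes, genes of the span and its flanks, the 2 most abundant genes of each other list, the 2 most abundant transcripts of each member and genes in counts of 5 or fewer, with defining markers at 0. Irf9, Ifnb1, Sting1, Cgas and Pycard were named after their values were seen, and 2 listed genes are not reported here.

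From the files, expected counts were scaled by TMM (edgeR 4.0.16, R 4.3.3) with a prior count of 0.5, and genes with at least 10 expected counts in both libraries were called detected. DESeq2 1.42.0 size factors were an alternative. The floor of 3 counts is 1.49e-05% of replicate 1 and 1.53e-05% of replicate 2. Shared words, motifs and figures used Python 3.11.15 with numpy 2.4.6, pandas 2.3.3, scipy 1.17.1 and matplotlib 3.10.9. Sequences are from RefSeq (GRCm38.p6) and GENCODE M21. No p-value was computed.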

Additional observations from a re-analysis of the deposited data

How the results depend on the processing

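No paired analysis was possible because both libraries belong to 1 group. All 7 measured members stayed at 1 TPM or more with the kallisto-layout table, the posterior mean, rescaling, a threshold of 10 TPM and without either replicate, and 0 passed 1.5-fold under the scalings and priors tried, except that all 7 did in the kallisto-layout TPM as deposited, an alternative chosen after seeing the data. There the median log2 ratio was -1.94 for the members and -2.28 for detected genes, both past 1.5-fold lower. For the members it was 0.31 after rescaling to protein-coding genes. The summed member level of 1565 TPM moved to 717 in the kallisto-layout table (1143 in replicate 1 and 290.4 in replicate 2), 1495 with the posterior mean, and 4560 and 4532 when the RSEM-layout and kallisto-layout tables were rescaled to protein-coding genes. Without one replicate the RSEM-layout level ranged from 1524 to 1606 TPM. The median log2 ratio of the members, 0.28, moved to 0.0054 by TPM and -0.0023 by its posterior mean, and was 0.36 with kallisto-layout counts. The coding-transcript share of 65.5% was 76.3% by expected counts and 55.8% in the kallisto-layout table. Ifi211 and Ifi207 changed places in the kallisto-layout table and without replicate 2. The median member share of words found in other genes was 28.7% with 31 bases, 39.1% with 21 and 13.2% with 75. Depth did not limit detection of members, since the lowest count was 4786, for Ifi205; the limit is 2 libraries of 1 group and reads that fit several genes. The causes of these moves were not tested.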

Other observations

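Among the members and the other PYHIN genes, the 2 deposited kinds of table differed most for a relative outside the listed family. Ifi214 had 382 and 648 expected counts in the RSEM-layout tables of replicates 1 and 2, against estimated counts of 7043 and 6510 by the kallisto layout, a ratio of 18.4 and 10.05. By that layout 91.5% and 91.8% of its TPM lay on Ifi214-204, a retained-intron transcript of 1 exon and 4780 bases. Ifi202b, with 9 and 15 expected counts, had ratios of 12.4 and 5.

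Ifi209 showed a smaller difference of this kind within the gene. The share of Ifi209-202, the transcript annotated for nonsense-mediated decay, was 4.72% and 3.50% of the gene in the RSEM-layout table and 19.2% and 31.7% in the kallisto-layout table. Ifi207-202 held 0.41 and 0 TPM in the former, with 23.9 and 0 expected counts, and 1797 and 1557 estimated counts in the latter.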
